A study of Mus musculus with 6 samples.

Results

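The 10 genes En1, En2, Gbx2, Otx2, Fgf8, Fgf17, Wnt1, Pax5, Pax8 and Lmx1b, which set up the midbrain-hindbrain boundary and the cerebellar territory, were followed in bulk RNA-seq of the mouse cerebellum. They were taken from a fixed list of names, and all 10 were found among the 55487 gene identifiers of the count tables. Each of the 6 libraries came from the cerebellum of 1 male at postnatal day 14. In the knockout group (KO, labelled Wbscr17KOKO after the gene's older name), 3 mice were homozygous for the allele Galnt17tm1.1(KOMP)Vlcg, and 3 mice labelled B6C3 served as wild-type controls (WT). B6C3 denotes offspring of C57BL/6J and C3H/He, to which the allele was bred because homozygotes on C57BL/6 did not survive to birth, per the labels. The labels give neither the litters nor the exons that the allele lacks. Galnt17 belongs to the enzyme family that starts mucin-type O-glycosylation. Whole cerebellar tissue was used, so neither the vermis nor a single lobule was resolved. Library totals were 17111611 to 29840046 reads counted in genes. The median SD of log2 CPM, over tested genes with a mean above 10 CPM, was 0.0533 in KO and 0.0981 in WT. By genes at over 2 times the level of every other library, WT replicate 3 stood apart. It had 108 such genes of 18237 tested, against 1 to 10 in each of the other 5. Results that rest on it are given with and without it. In the sample quality weights of limma-voom, WT replicate 1 was lowest (0.401, against 0.641 for WT replicate 3).

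In the embryo, an organizer at the isthmus forms where Otx2, expressed in the forebrain and midbrain, meets Gbx2, expressed in the anterior hindbrain. The isthmus secretes the growth factors FGF8 and FGF17 and, on its midbrain side, WNT1, and their expression is maintained by transcription factors of the engrailed, PAX2/5/8 and LMX1 families. After birth several of these genes go on being expressed in restricted cells. En1 and En2 act in the patterning of cerebellar folds and molecular stripes, Otx2 is expressed in granule cell precursors of posterior lobules and in the choroid plexus, and Lmx1b is needed by serotonergic neurons of the hindbrain.

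RefSeq (GRCm38.p6) gave promoter entries for 7 of the 10 members. Those of 3 members are shown with the bases upstream of the annotated start. En1 and Pax5 were taken because both were highest in the same library, and Otx2 because its CPM stayed within a narrow range. Lmx1b and Pax8, with few reads, were also highest in that library and are not shown. Capitals mark TAATTA, a core that many homeodomain proteins bind, and TAATCC or its reverse complement GGATTA, a core of OTX proteins. Both strands were searched. The motifs can overlap at their ends, which did not occur in these stretches. The En1 stretch is chr1:120602237-120602417 on the plus strand, ending before the GENCODE start. The Pax5 stretch is chr4:44710695-44710944 on the minus strand. The Otx2 stretch is chr14:48667645-48667894 on the minus strand, within the bounds of the gene but outside its annotated exons.
En1: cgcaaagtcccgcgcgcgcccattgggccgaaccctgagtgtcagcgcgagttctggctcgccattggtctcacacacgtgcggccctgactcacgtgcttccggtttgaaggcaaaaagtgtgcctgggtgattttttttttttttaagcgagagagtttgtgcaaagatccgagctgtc
Pax5: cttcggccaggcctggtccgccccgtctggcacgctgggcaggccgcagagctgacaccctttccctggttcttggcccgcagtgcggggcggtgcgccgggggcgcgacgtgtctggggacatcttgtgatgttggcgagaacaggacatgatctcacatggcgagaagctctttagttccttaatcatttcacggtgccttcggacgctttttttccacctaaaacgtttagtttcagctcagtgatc
Otx2: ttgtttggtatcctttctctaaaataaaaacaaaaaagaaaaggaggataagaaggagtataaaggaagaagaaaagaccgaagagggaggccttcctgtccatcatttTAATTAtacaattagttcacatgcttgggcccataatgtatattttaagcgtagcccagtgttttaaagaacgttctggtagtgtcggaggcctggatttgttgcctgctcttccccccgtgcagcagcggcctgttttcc
Of 4 promoter entries for Otx2 only this one is printed, since the others overlap annotated exons of the gene. Of the 3 others, 1 held 3 copies of TAATTA and 1 of TAATCC, and 2 held neither. Otx2 held 1 copy of TAATTA in the printed stretch, and neither motif stood in the En1 or Pax5 stretch. TAATTA was found in 4.84% and TAATCC in 6.25% of all 32851 promoter entries over the 250 bases before the start. A match in these letters is a description, not a binding site.

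Of the 10 members, 4 had enough reads to be tested, and none of these 4 passed. En2, En1, Otx2 and Lmx1b were retained by edgeR's filter on low counts, with 0 higher and 0 lower in KO (edgeR's quasi-likelihood test, Benjamini-Hochberg adjusted p below 0.05 over 18237 genes). None of the 4 had an unadjusted p under 0.05, and 0 passed in DESeq2 and in limma-voom. DESeq2 gave Lmx1b no adjusted p. Over all genes tested, 1.66% were called, 0.784% as higher and 0.872% as lower. The KO and WT values of all 4 tested members overlapped. Over all tested genes 23.7% did not overlap, and 4 genes are too few to be compared with that share. The other 6 members, Gbx2, Fgf8, Fgf17, Wnt1, Pax5 and Pax8, lay under the filter and are given by their counts. For Galnt17, the targeted gene, 72, 80 and 63 reads were counted in the KO libraries, against 1119, 729 and 963 in WT, which matches the group labels. In bulk tissue, fewer cells of a type and less RNA per cell cannot be told apart.

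The levels of the members spread over several orders of magnitude. Per kilobase of annotated exon, in CPM (reads scaled to a common library total) averaged over the 6 libraries, En2 stood at 59.4, Otx2 at 7.29 and En1 at 2.16. En2 lay above 96.2% of tested genes on this scale, Otx2 above 61.9% and En1 above 35.4%. These 3 did not overlap in any library, and En1 at its lowest lay above every other member at its highest. Next came Fgf17 at 0.109, Pax5 at 0.100 and Lmx1b at 0.0982 CPM per kilobase, whose ranges over libraries overlapped, so that their order is not set. Pax8 at 0.0246 and Gbx2 at 0.0228 overlapped as well, Wnt1 had 1 read in all and Fgf8 had none.

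**Figure D1:**
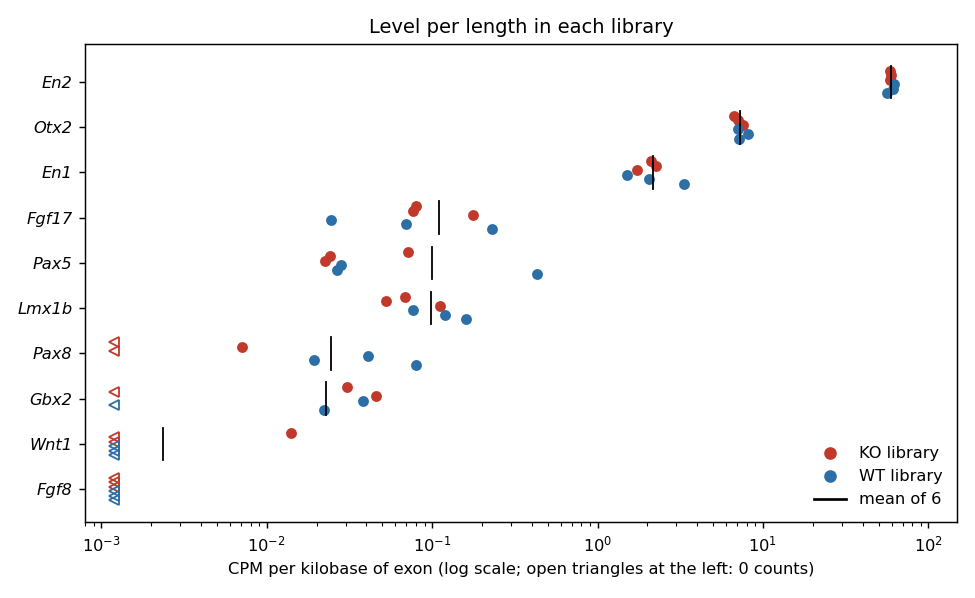
Level of each member in each library, in CPM per kilobase of annotated exon on a log axis, with KO libraries in red, WT libraries in blue, the mean of the 6 as a black line and libraries with 0 counts as open triangles. En2, Otx2 and En1 stand apart from the other members and from each other, while Fgf17, Pax5 and Lmx1b overlap.

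En2, an engrailed homeobox gene that in the cerebellum is expressed in granule cells and other neurons (ENSMUSG00000039095, chr5:28165694-28172166, GRCm38), was the most abundant member and the least variable. It was at 207, 210.4 and 207 CPM in KO replicates 1, 2 and 3 and at 219, 217 and 199 CPM in WT replicates 1, 2 and 3. The KO values lay inside the range of the WT values. The means were 208 ± 1.89 in KO and 212 ± 10.8 CPM in WT (SD, n = 3 each), a log2 fold change of -0.03 (SE 0.05, edgeR adjusted p = 0.843). The 95% interval of the fold change, KO over WT, ran from 0.903 to 1.07. The gene lies 102.7 Mb from Galnt17 on the same chromosome.

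En1, the other engrailed gene, which acts with En2 in midbrain and cerebellar development (ENSMUSG00000058665, chr1:120602418-120607992), was at 5.56, 5.89 and 4.52 CPM in KO and at 3.93, 5.34 and 8.75 CPM in WT. WT replicate 3 was above all other libraries and WT replicate 1 below them. The means were 5.32 ± 0.716 and 6.01 ± 2.48 CPM (SD, n = 3 each), and the log2 fold change was -0.17 (SE 0.26, interval -0.74 to 0.40, edgeR adjusted p = 0.773). Without WT replicate 3 the direction turned, to a log2 fold change of 0.22 (adjusted p = 0.604). The exact Poisson interval of WT replicate 3 (7.52 to 10.1 CPM) lay above those of the other 5 libraries, of which the highest reached 6.96 CPM in KO replicate 2. These intervals cover counting error only, as reads can be PCR copies.

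Otx2, a homeobox gene of forebrain and midbrain, choroid plexus and some granule cell precursors (ENSMUSG00000021848, chr14:48657677-48673819), was at 28.4, 29.9 and 32.2 CPM in KO and at 29.9, 34.1 and 30.3 CPM in WT. The groups overlapped, and the highest library was 1.20 times the lowest. The log2 fold change was -0.06 (SE 0.08, interval -0.23 to 0.11, edgeR adjusted p = 0.724), and without WT replicate 2 it was 0.0028. Beside this, the summed level of 13 choroid plexus markers was 225, 522 and 784 CPM in KO and 1624, 2545 and 2922 CPM in WT, so the KO libraries lay below the WT libraries. Most of the sum in WT replicate 3 came from the transthyretin gene Ttr (1995 CPM) and from Enpp2 (796 CPM). Ttr did not pass in edgeR. All 13 were measured and none was at 0 in all libraries. Of them 9 passed as lower in KO, Aqp1, Folr1, Enpp2, Slc4a5, Kl, Kcne2, Kcnj13, Sostdc1 and F5, with log2 fold changes from -3.11 for Sostdc1 to -1.25 for Enpp2, and the median of the list was -1.96. Over all genes 0.872% were called lower. The call of Aqp1 was kept with each library left out, whereas the calls of the other 8 were lost without KO replicate 2 and without WT replicate 2, with adjusted p values up to 0.199 and 0.150. The calls of Enpp2, Kcnj13 and F5 were also lost without KO replicate 1, that of Kcnj13 without KO replicate 3 and that of F5 without WT replicate 3. Otx2 thus stayed within 1.20 times over libraries in which those markers differed by several fold.

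Lmx1b, a LIM homeobox gene of the isthmus and of serotonergic neurons (ENSMUSG00000038765, chr2:33560965-33640511), was counted 10, 6 and 11 times in the KO libraries and 9, 10 and 16 times in the WT libraries. That was 0.335, 0.258 and 0.546 CPM against 0.373, 0.587 and 0.778 CPM, with overlapping groups and the highest value in WT replicate 3. The means were 0.380 ± 0.149 and 0.579 ± 0.203 CPM (SD, n = 3 each), and the log2 fold change was -0.61 (SE 0.44, interval -1.58 to 0.35, edgeR adjusted p = 0.492). As a fold, KO over WT, the interval ran from 0.335 to 1.28, so folds inside it were not excluded with these few reads and 3 mice per group. Without WT replicate 3 the log2 fold change was -0.32 (adjusted p = 0.797). Its paralogue Lmx1a, a gene of the rhombic lip and unipolar brush cells that the list of other transcription factors holds, fell in KO, from 2.66 ± 0.551 to 1.20 ± 0.113 CPM (log2 fold change -1.14, SE 0.23, edgeR adjusted p = 0.0421). It was at 1.24, 1.07 and 1.29 CPM in KO and 2.07, 2.76 and 3.16 CPM in WT. Of the difference between the 2 paralogues there was no test, and the intervals of their log2 fold changes overlap.

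**Figure D2:**
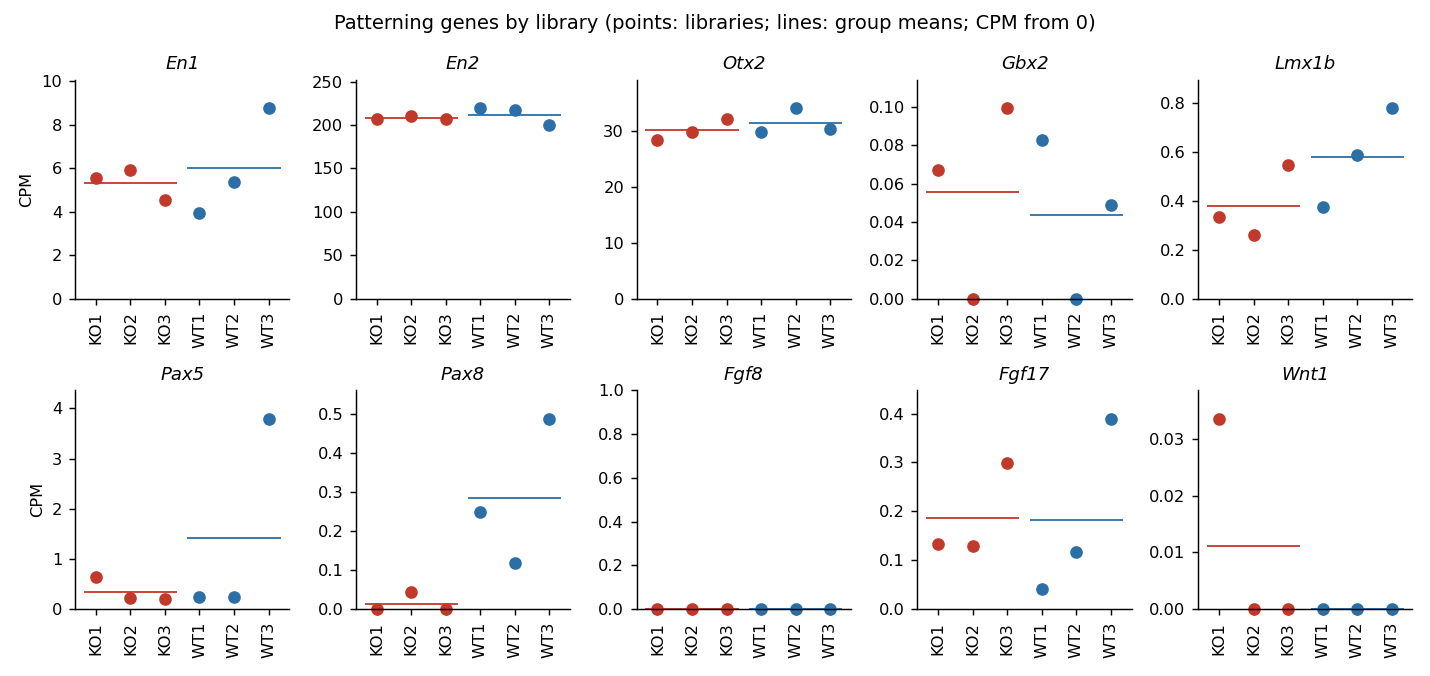
Level of each of the 10 members in CPM, on a linear axis from 0, with 1 point per library (KO1 to KO3 red, WT1 to WT3 blue) and a line at each group mean. En2 and Otx2 vary little, En1 and Pax5 are highest in WT3, and Fgf8 is at 0 in all 6 libraries.

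Among the PAX genes, which encode paired-domain transcription factors that help maintain the isthmus, Pax5 was decided by 1 library. Pax5 (ENSMUSG00000014030, chr4:44524757-44710487) was counted 19, 5 and 4 times in the KO libraries, against 6, 4 and 78 times in WT. WT replicate 3 was at 3.79 CPM (exact Poisson interval 2.997 to 4.73) and the other 5 libraries between 0.199 and 0.637 CPM, and the groups overlapped. In edgeR without a filter on low counts, Pax5 was lower in KO (log2 fold change -1.93, adjusted p = 2.12e-05), and without WT replicate 3 in the same fit the direction turned (0.61, adjusted p = 0.762). DESeq2 gave a log2 fold change of -2.02 and an adjusted p of 0.515. That unfiltered fit called 2.40% of 33485 genes higher and 2.45% lower, against 0.784% and 0.872% in the filtered one. Exons of Pax5 overlap those of Gm12462 and 5730488B01Rik on the opposite strand, and 16 of 132 reads had been set aside as shared. With these included, the WT replicate 3 count was 87 and the others lay between 4 and 22.

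Pax8 (ENSMUSG00000026976, chr2:24420560-24475599) had few reads, and fewer in each KO library than in each WT library. The counts were 0, 1 and 0 for KO, against 6, 2 and 10 for WT, so that the groups did not overlap. Of tested genes, 12.2% had KO below WT without overlap, a set that leaves out Pax8 and other genes under the filter. Summed over libraries and scaled to their totals, the WT level was 21.1 times that of KO, with an exact binomial interval of 3.34 to 880.1 that covers counting error only. In edgeR without a filter the adjusted p was 0.0108, and it was 0.126 without KO replicate 1, 0.0742 without KO replicate 3 and 0.218 without WT replicate 3. DESeq2 gave an unadjusted p of 0.00726 and no adjusted p. Exons of Pax8 share 367 bases with Gm13415 on the opposite strand. The libraries are unstranded, and with reads shared between the pair included the counts were 0, 1 and 1 in KO and 9, 2 and 10 in WT, so the groups still did not overlap.

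The secreted factors of the isthmus were almost absent from these libraries. Fgf8 (ENSMUSG00000025219, chr19:45736798-45742915) had 0 reads in all 6, so that it is reported as not measured; this allows up to 0.0222 CPM over the 135145449 reads counted (3 counts). Wnt1 (ENSMUSG00000022997, chr15:98789857-98793837) had 1 read, in KO replicate 1. Fgf17 (ENSMUSG00000022101, chr14:70636203-70642268), a close relative of Fgf8, was counted 4, 3 and 6 times in KO, against 1, 2 and 8 times in WT. The sums of 13 and 11 counts gave a WT level 0.993 times that of KO (exact binomial interval 0.403 to 2.40, counting error only). Gbx2 (ENSMUSG00000034486, chr1:89927956-89931179), the hindbrain partner of Otx2 in setting the boundary, was counted 2, 0 and 2 times in KO, against 2, 0 and 1 times in WT. For Gbx2, 43.5% of exon bases are shared with D130058E05Rik on the opposite strand, and 16 of 23 overlapping reads had been set aside as ambiguous in the column used. With these included, Gbx2 reads numbered 6, 1 and 3 in KO, against 7, 0 and 6 in WT, which cannot be told apart from reads of D130058E05Rik. For En1, Otx2, Fgf17 and Lmx1b no read was set aside for a gene on the opposite strand, and for En2 it was 1 of 28347. Otx2 also shares 168 exon bases with Gm49154 on its own strand, where shared reads could not be counted.

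The high values of En1 and Pax5 in WT replicate 3 came with other genes. Markers of serotonergic and noradrenergic neurons of the brainstem were also highest there. The serotonin transporter gene Slc6a4 was at 7.73 CPM in WT replicate 3 and at 0.129 CPM or less in the others, the tryptophan hydroxylase gene Tph2 at 6.61 against at most 1.57 CPM, and the dopamine beta-hydroxylase gene Dbh at 2.72 against at most 0.402 CPM. Of the genes of the other lists, Tcf7l2, a transcription factor of WNT signalling, was at 36.9 CPM against at most 7.37, and Meis2, a homeobox gene of the midbrain, at 22.9 CPM against at most 7.80 CPM. Slc6a4, Tph2, Dbh, Tcf7l2 and Meis2 were chosen after their values were seen. The summed level of the 20 midbrain and brainstem neuron markers was 47.1, 49.9 and 51.5 CPM in KO and 55.5, 65.1 and 89.8 CPM in WT, with none of them at 0 in all libraries. Slc6a5, a glycine transporter gene that cerebellar Golgi cells also express, made up 41.9 of the 89.8 CPM in WT replicate 3. It was not highest there, as another library reached 44.1 CPM, and it was lower in KO (below). The difference between KO and WT in the sum thus includes that of Slc6a5. Of the members with few reads, Lmx1b, Pax8 (0.486 against at most 0.248 CPM) and Fgf17 (0.389 against at most 0.298 CPM) were also highest in WT replicate 3. Unlike those of En1 and Pax5, their exact Poisson intervals in that library overlapped those of other libraries. For Fgf17 the interval was 0.168 to 0.766 CPM, against 0.109 to 0.648 CPM in KO replicate 3. The part of the brainstem markers, Tcf7l2 and Meis2 in the values of En1, Pax5, Lmx1b, Pax8 and Fgf17 was not tested. Without that library, Pax5 was at 0.248 and 0.235 CPM in the remaining WT libraries, inside the KO range, and En1 at 3.93 and 5.34 CPM, of which the first is below and the second inside it.

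**Figure D3:**
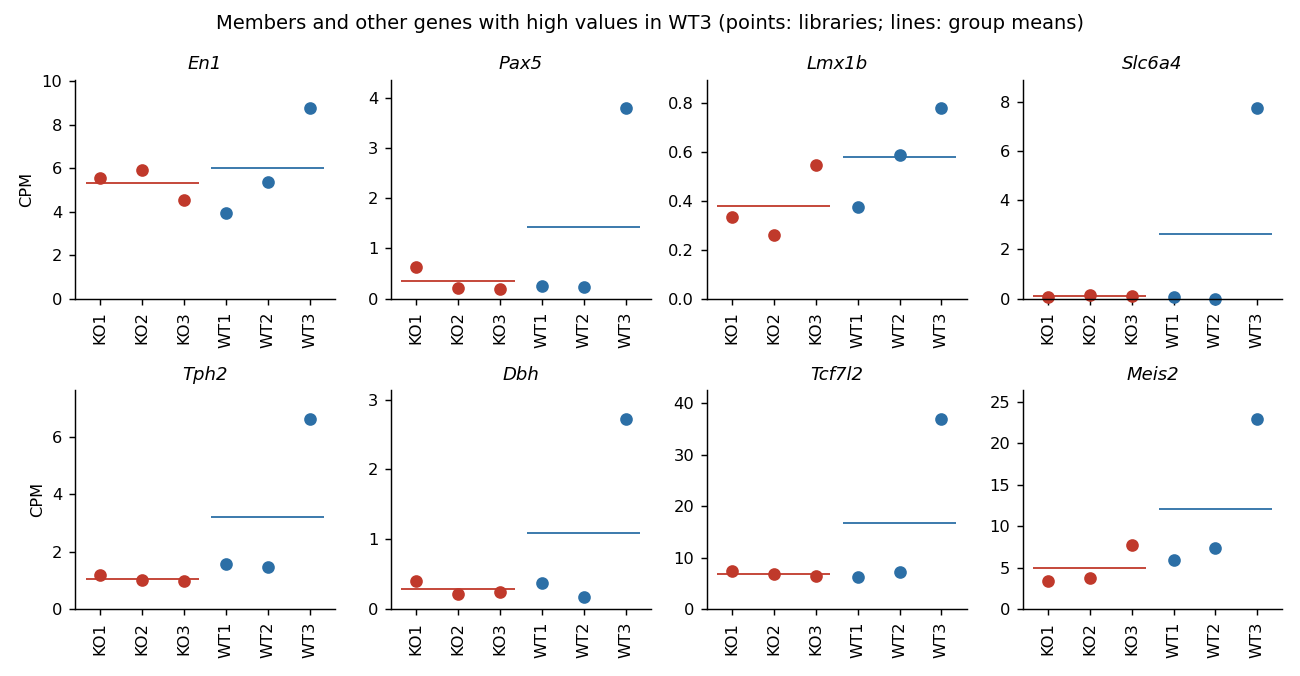
CPM per library of En1, Pax5 and Lmx1b beside 3 brainstem neuron markers (Slc6a4, Tph2, Dbh) and 2 genes of the pathway and transcription factor lists (Tcf7l2, Meis2), on linear axes from 0 with a line at each group mean. In each panel the highest point is WT3.

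In all, 4 lists of related genes, chosen for the pathways in which the members act, held 1, 1, 1 and 0 calls among 33, 47, 29 and 22 tested genes, against 1.66% of all genes tested, and their medians lay between -0.10 and -0.03, against -0.01 for all genes (log2 fold change). Of 33 tested genes of FGF ligands, receptors and feedback, 0 rose and 1 fell, and the median was -0.03. The gene that fell was Etv5, an ETS transcription factor induced by FGF signalling, at 70.8, 72.9 and 74.1 CPM in KO and 92.5, 96.04 and 85.0 CPM in WT (log2 fold change -0.33, SE 0.06, edgeR adjusted p = 0.0232). The KO values lay below the WT values without overlap. Spry4, which encodes an FGF-induced inhibitor of the pathway, was at 17.3 ± 1.78 against 23.6 ± 2.14 CPM and missed the threshold (edgeR adjusted p = 0.0590), though it passed in DESeq2 (0.0106) and limma-voom (0.0170). Fgf1, a ligand, was at 69.6 ± 0.285 against 79.8 ± 1.36 CPM (edgeR adjusted p = 0.0767). An unadjusted p under 0.05 was found for 7 genes of the list, 6 of them lower in KO, against 17.6% of all tested genes, 8.57% higher and 8.99% lower. The call of Etv5 was lost without any 1 of the KO libraries or without WT replicate 2, with adjusted p values up to 0.1435.

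Of 47 tested genes of WNT ligands, receptors and canonical targets, 1 rose and 0 fell, with a median of -0.07. Wif1, a secreted inhibitor that binds WNT proteins, was at 24.5, 26.4 and 31.1 CPM in KO and 19.8, 18.4 and 20.998 CPM in WT (log2 fold change 0.47, SE 0.10, edgeR adjusted p = 0.0497). Each KO value lay above each WT value, and the call was lost without any 1 of the KO libraries or without WT replicate 2 (adjusted p up to 0.181). Fzd4, a WNT receptor, was at 14.3 ± 0.799 against 19.05 ± 2.25 CPM, short of the threshold (edgeR adjusted p = 0.0799). Sfrp1, a secreted WNT antagonist, was at 36.6 ± 5.84 against 51.5 ± 7.59 CPM (edgeR adjusted p = 0.0862). Sfrp1 passed in DESeq2 (0.00469) and limma-voom (0.0242), and Fzd4 in DESeq2 (0.0316).

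Of 29 tested transcription factors of the midbrain-hindbrain region and rhombic lip other than the members, 0 rose and 1 fell, with a median of -0.10. The 1 that fell was Lmx1a, described beside Lmx1b. Its call was lost without any 1 library other than WT replicate 1, with adjusted p values up to 0.203. Hes3, a repressor of isthmic progenitors that the Purkinje cells also express, was at 43.8 ± 2.61 against 34.7 ± 2.68 CPM (edgeR adjusted p = 0.0603). Zic1, a zinc finger gene of granule cells, was at 1206 ± 24.3 against 1040 ± 29.3 CPM (edgeR adjusted p = 0.106). Both passed in DESeq2 (0.0220 and 0.00419). Of 22 guidance molecules of the isthmus and of cerebellar stripes, 0 passed in edgeR and in DESeq2, 1 higher and 1 lower passed in limma-voom, and 3 had an unadjusted p under 0.05, of which 2 were higher in KO. The 3 smallest p values were those of the Eph receptor gene Epha8 (log2 fold change 0.22), the ephrin gene Efnb3 (0.25) and Ephb1 (-0.24), with edgeR adjusted p values of 0.0864, 0.106 and 0.152. Without WT replicate 3, Efnb3 passed (0.31, adjusted p = 0.0329), and Epha8 and Ephb1 passed without WT replicate 1 (0.0179 and 0.0061).

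**Figure D4:**
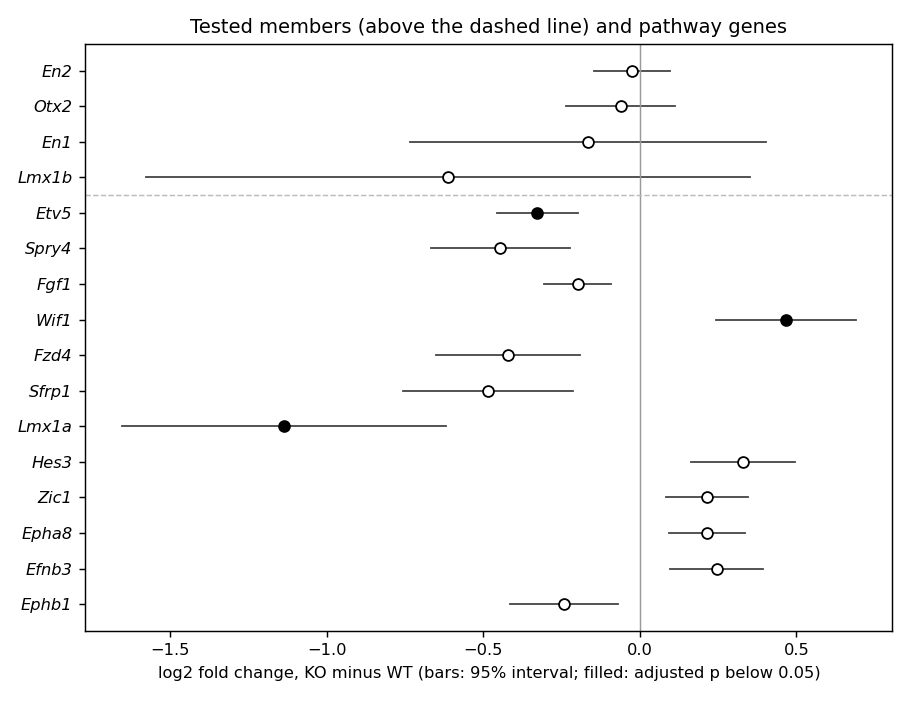
Log2 fold change (KO minus WT) with its 95% interval for the 4 tested members, above the dashed line, and for the 3 genes of smallest p in each of the 4 related lists. Filled points passed at an adjusted p below 0.05. The 4 members have intervals that include 0, and Etv5, Wif1 and Lmx1a passed.

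Markers of cerebellar cells were abundant in every library, as the labelled tissue gives. The summed level of 16 granule cell and precursor markers was 5174 to 5733 CPM over the 6 libraries and that of 12 Purkinje cell markers 4339 to 5537 CPM, and neither list had a gene at 0 in all libraries. The Purkinje sum ran from 5357 to 5537 CPM in KO and from 4339 to 4702 CPM in WT, and 3 of 12 passed as higher, Gng13, Pcp2 and Car8 (log2 fold changes 0.58, 0.35 and 0.40), against 0.784% of all genes. In DESeq2 6 of the 12 were higher and in limma-voom 7. Each of the 3 calls was lost without KO replicate 2 or KO replicate 3 (adjusted p up to 0.189), that of Pcp2 and Car8 also without KO replicate 1, and that of Gng13 and Car8 without WT replicate 2. With both strand columns summed, Gng13 was at 0.35 (adjusted p = 0.0671). Of 6 unipolar brush cell markers, Calb2 (-0.39) and Lmx1a fell, and the call of Calb2 was lost without any 1 KO library or without WT replicate 2 (adjusted p up to 0.207). Of the midbrain and brainstem markers 6 were tested, and the glycine transporter gene Slc6a5, which cerebellar Golgi cells also express, fell (26.1 ± 1.99 against 39.7 ± 5.82 CPM, edgeR adjusted p = 0.0225), a call lost without any 1 KO library or without WT replicate 2 (adjusted p up to 0.127). Tph2 (-1.58) and Th (0.37) did not pass in edgeR. Tph2 passed in DESeq2 (adjusted p = 0.0334) and in edgeR without WT replicate 1 (0.0313), and it was at -0.50 (0.374) without WT replicate 3. Th was at 0.71 (0.119) without WT replicate 3 and at 0.13 (0.724) without WT replicate 1. The septin gene Sept4 was the 1 of 12 astrocyte and Bergmann glia markers that passed (0.32), with Tnc (-0.18) and Aldh1l1 (-0.14) next. The call of Sept4 was lost without any 1 library other than WT replicate 1 (adjusted p up to 0.217). No marker of inhibitory interneurons (12 tested), of granule cells and precursors (16) or of the meninges (12) passed in edgeR, where 1 higher and 3 lower, 2 higher and 2 lower, and 2 higher had an unadjusted p under 0.05. In DESeq2 1 interneuron and 1 granule cell marker passed as higher, and limma-voom also called 1 interneuron marker lower. Those of smallest p were Cxcl14 (-0.28), Pvalb (0.22) and Lgi2 (-0.29, and -0.12 without WT replicate 3), then Zic1, Atoh1 (-0.94) and Gli1 (0.31), and Slc6a13 (0.31), Col1a1 (0.26) and Col1a2 (0.15, and 0.22 without WT replicate 3). The part of these cell types in the values of the members was not tested.

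The genes whose log2 CPM followed each tested member most closely over the 6 libraries were taken as a description. For En1 they were the semaphorin gene Sema7a, the glutamate receptor gene Grid1 and Tmem196 (Pearson r = 0.996, 0.994 and 0.994, n = 6 libraries), and for En2 they were 3632454L22Rik, Sdhaf2 and AC165153.1 (r = 0.988, 0.986 and 0.986). For Otx2 they were the claudin gene Cldn3, Nedd8 and Wdr53 (r = 0.980, 0.977 and 0.976), and for Lmx1b Tm9sf4, Pelp1 and Ufsp1 (r = 0.985, 0.983 and 0.978). With 6 libraries, 14 to 76 genes reached an r over 0.95 with each member, and all genes of a library share its depth and its composition.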

How the data were processed

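RNA was purified with Trizol and treated with DNase I, prepared with Illumina TruSeq RNA kits and sequenced as paired reads of 150 bases, per the labels' protocols. The authors deposited 1 table of raw read counts per gene for each library. STAR 2.7.5a and the builds mm10 and GRCm38 are named in the submitters' processing notes, and the file names carry Ensembl release 102; further counting options were not given in the sources at hand. Both strand columns held equal shares of reads (49.9% to 50.0% in the first), so the unstranded column was analysed. Unmapped reads (13.8% to 17.2% in KO, 6.52% to 10.03% in WT), multimapping reads (3.72% to 3.90% and 4.09% to 4.29%), reads that matched several genes (3.95% to 4.07% and 4.35% to 4.44%) and reads that matched none (8.22% to 8.85% and 6.94% to 9.30%) were kept out of library sizes. The groups did not overlap in the first 3 shares, and their part in the results was not tested. Symbols, positions and exon lengths came from GENCODE M21 (GRCm38), which matched 55227 of 55487 identifiers. Groups follow the strain label, and replicate numbers follow accession order and are only names. Each library is 1 animal; litters are not given.

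Differences were tested in edgeR 4.0.16 under R 4.3.3 (TMM scaling, filterByExpr with a minimum count of 10 and total of 15, quasi-likelihood F test, two-sided, threshold 0.05). SEs and intervals were derived from the fold change and F statistic. Alternatives were RLE and upper-quartile scaling, no filter, DESeq2 1.42.0, limma-voom (limma 3.58.1) with sample quality weights, and each library left out. The steps were tested on simulated data for 18237 genes. Of changes simulated at a fold of 1.5, 48% were recovered, and of those at a fold of 2, 86%, with 14 false calls. The text names all 10 members, every called gene of each list or the 3 of smallest p, and the 3 genes nearest to each tested member. A result that this rule names is not reported here. The members and lists were chosen with earlier results of these data known.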

Additional observations from a re-analysis of the deposited data

How the results depend on the processing

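No paired analysis was possible because the labels give no replicate numbers that the groups share. The count of members called was 0 higher and 0 lower under both other scalings, DESeq2, limma-voom and each library left out. Without a filter on low counts it was 0 higher and 2 lower, Pax5 and Pax8. The log2 fold changes of En2 and Lmx1b kept their sign in every alternative run, that of En1 ran from -0.41 to 0.22 with a library left out (0.22 without WT replicate 3), that of Otx2 from -0.11 to 0.0028 (0.0028 without WT replicate 2), and that of Pax5 without a filter turned to 0.61 without WT replicate 3. Including reads shared with overlapping genes and leaving out libraries from the unfiltered fit were chosen after seeing the data.

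Over all genes, 143 were called higher and 159 lower. Without a filter there were 803 and 820, with DESeq2 283 and 288, with limma-voom 397 and 396, and with a library left out 28 to 959 higher and 53 to 962 lower, both highest without WT replicate 1; the cause was not tested. The FGF list had 1 lower call, against 4 without a filter, 2 in DESeq2, 3 in limma-voom and 0 to 5 with a library left out, and 0 to 2 higher calls with a library left out. The WNT list had 0 lower calls, against 4 without a filter, 2 in DESeq2, 1 in limma-voom and 0 to 2 with a library left out, and 0 to 1 higher calls with a library left out. The list of other transcription factors had 0 higher calls, against 1 with upper-quartile scaling, 2 without a filter, in DESeq2 and in limma-voom and 0 to 2 with a library left out, and 1 lower call, against 5 without a filter and 0 to 3 with a library left out. The guidance list had 0 calls, against 2 higher and 1 lower without a filter, 1 and 1 in limma-voom, and 0 to 1 in each direction with a library left out. Depth limits Gbx2, Fgf8, Fgf17, Wnt1 and Pax8, each with 24 or fewer reads in all.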
